A study of Saccharomyces cerevisiae with 4 samples.

Results

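The COS genes COS1 to COS10 of budding yeast (Saccharomyces cerevisiae) were taken by their systematic names, and all 10 were present among the 7445 features of the count table. They were compared between 2 libraries of a trf4Δ strain, in which TRF4 is replaced by a hygromycin resistance cassette (trf4::HphMX4), and 2 libraries of the wild type. Both strains were of the W303 background, and all cultures grew exponentially at 25 °C in rich YPDA medium to an OD600 of 0.8. Total RNA was depleted of ribosomal RNA and sequenced as 76-base paired-end reads. The labels do not state whether the libraries of a group came from separate cultures, so the p-values measure only the spread between these libraries, which may be technical.

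COS genes lie next to the telomeres, where copies of whole gene blocks have been exchanged between chromosome ends, and they encode related membrane proteins of the endosome. Cos proteins carry ubiquitin and take other membrane proteins with them into multivesicular bodies, from which the cargo reaches the vacuole for degradation. Trf4 belongs to TRAMP, a nuclear complex in which it puts short poly(A) tails on RNA that the exosome then degrades or trims. TRF4, which the count table lists as PAP2, was nearly absent from trf4Δ with 21 and 40 counts, whereas the wild type had 8102 and 8468 counts. Library totals lay between 53516242 and 57964567 counts, and the replicates differed by more than counting noise, with a chi-square per degree of freedom of 97.5 for the trf4Δ pair and 58.6 for the wild-type pair.

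In the reference genome R64, which is the sequence of sacCer3, the build named in the processing notes of the submitters, the 10 genes had a single exon each and lay on 9 chromosomes. They ended between 1.71 and 14.48 kb from the nearest chromosome end, with COS2 closest and COS9 farthest. Of the 10 genes, 9 were transcribed away from the chromosome end, the exception being COS10. COS1 (YNL336W) lies at chrXIV:8330-9475 and COS10 (YNR075W) at chrXIV:779916-781040 on the other arm of the same chromosome. The remaining genes are COS2 (YBR302C, chrII:810340-811479), COS3 (YML132W, chrXIII:7244-8383), COS4 (YFL062W, chrVI:6426-7565), COS5 (YJR161C, chrX:742848-743999), COS6 (YGR295C, chrVII:1081584-1082729), COS7 (YDL248W, chrIV:1802-2953), COS8 (YHL048W, chrVIII:6401-7546) and COS9 (YKL219W, chrXI:14485-15708). No annotated gene of RefSeq overlapped any of them. R64 is the sequence of strain S288C and not of W303, and the ends of chromosomes differ between yeast strains, so a copy in these cells may differ from its reference.

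The family fell into 8 close copies, COS1 to COS8, and 2 distant members. The reading frames of COS1 to COS8 were 83.0% to 100% identical over 28 pairs, and COS2 and COS3 were identical along their whole length. The 17 pairs with COS9 or COS10 were 60.6% to 70.3% identical. Upstream of the start codon most pairs of close copies were more alike than within the gene. Over 250 bp the 28 pairs were 90.4% to 100% identical, and in 22 of them the upstream sequence was closer than the reading frame. COS8 showed this most plainly, since its upstream region was 99.2% identical to that of COS1 and its reading frame 84.7%. For COS9 and COS10 the upstream identity was 46.0% to 57.2%. The windows end at the annotated start codon, and in COS9 letters like those of the close copies run across that start. Its upstream values therefore depend on where the start was annotated.

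The 120 bases before the annotated start codon are shown for 6 members, 5′ to 3′ along the gene. The common promoter of the close copies can thus be read against the same window of COS9 and COS10. COS1 has the same letters here as COS2 and COS3, COS4 had the largest change, COS6 was the most abundant member, and COS8 has the most divergent reading frame of the close copies. Capitals mark 3 motifs. TATAAA is the usual form of the box bound by the TATA-binding protein. The core of the stress response element is AGGGG, which is read here from the opposite strand and so appears as CCCCT. The core of URS1, the site through which Ume6 represses meiotic genes during growth, is TCGGCGGCT.
COS1, chrXIV:8210-8329, plus strand: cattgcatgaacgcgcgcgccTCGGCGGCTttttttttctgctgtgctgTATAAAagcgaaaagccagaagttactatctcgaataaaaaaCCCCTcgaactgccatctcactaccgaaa
COS4, chrVI:6306-6425, plus strand: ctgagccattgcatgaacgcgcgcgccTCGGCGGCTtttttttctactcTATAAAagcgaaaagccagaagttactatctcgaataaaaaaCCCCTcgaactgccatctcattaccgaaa
COS6, chrVII:1082730-1082849, minus strand: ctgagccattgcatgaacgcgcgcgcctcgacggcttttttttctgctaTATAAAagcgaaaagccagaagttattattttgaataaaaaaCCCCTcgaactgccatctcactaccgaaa
COS8, chrVIII:6281-6400, plus strand: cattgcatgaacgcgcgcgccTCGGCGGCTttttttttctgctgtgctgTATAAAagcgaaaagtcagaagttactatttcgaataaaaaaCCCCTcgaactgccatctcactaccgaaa
COS9, chrXI:14365-14484, plus strand: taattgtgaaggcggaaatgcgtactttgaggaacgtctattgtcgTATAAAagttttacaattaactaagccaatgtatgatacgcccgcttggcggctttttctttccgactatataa
COS10, chrXIV:779796-779915, plus strand: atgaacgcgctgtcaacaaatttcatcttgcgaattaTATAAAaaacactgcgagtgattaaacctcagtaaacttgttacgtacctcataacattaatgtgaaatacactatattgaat

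All 8 close copies had TATAAA beginning 71 bases before the start codon and CCCCT beginning 29 bases before it, and 66 of the last 71 positions were the same in all 8. TATAAA was found within 250 bp of the start of all 10 members, against 43.6% of the 6020 promoters of protein-coding genes searched on both strands. In COS9 it began 74 bases, and in COS10 83 and 142 bases, before the start codon. COS9 has another TATAAA across its annotated start codon, where the sequence resembles that around TATAAA in the close copies. This further match was not counted because the search ended at that codon. AGGGG on either strand was found in 8 of 10 members, against 18.7% of all promoters. CCCCT also occurs in COS9, just after the annotated start codon and so outside the search. TCGGCGGCT was found in 7 of 10 members (COS1, COS2, COS3, COS4, COS5, COS7 and COS8), against 35 promoters or 0.581% of all, these 7 included. It began between 93 and 99 bases before the start codon, and it was chosen after the sequences had been seen. The 3 motifs do not overlap, close copies are not independent, and a match of letters does not show that a factor binds.

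Because of this similarity, the sequence that could assign a read to a single copy was measured. For each gene, all windows of 76 bases, the read length, were looked up in the whole of R64. Windows lay wholly within the reading frame and were scored singly. The measure thus leaves out the mate of a paired read and reads that cross the edge of a gene. Every window was unique in COS9 and COS10, and 97.0% were unique in COS8 and 75.9% in COS6. The share was 44.3% in COS7, 41.2% in COS1, 40.8% in COS4 and 30.3% in COS5, and in COS2 and COS3 no window was unique. Nearly all shared windows were shared within the family, and YIR043C, a related pseudogene on chromosome IX, was the only other place, with at most 93 windows (COS5). One window occurred in 6 members (COS1, COS2, COS3, COS4, COS5 and COS7) and shows how long the shared stretches are. It covers bases 67 to 142 of COS1.
COS1, chrXIV:8396-8471, plus strand: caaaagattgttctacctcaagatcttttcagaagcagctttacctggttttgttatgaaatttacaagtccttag

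How reads with several matches were counted is not given in the sources used here. COS2 and COS3 nevertheless had different counts, at 337 and 369 counts for COS2 in trf4Δ and 127 and 108 counts for COS3. The levels of single close copies are therefore uncertain, and the sum over the family is given as well.

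The family as a whole was higher in trf4Δ. Summed over the 10 genes, trf4Δ had 37072 and 41792 counts and the wild type 13642 and 14303 counts. As a share of all counts of a library this came to 0.0693% and 0.0771% for trf4Δ and to 0.0242% and 0.0247% for the wild type. After TMM scaling of the library sizes, the family reached 655 ± 55.9 CPM in trf4Δ cells and 273 ± 7.64 CPM in wild-type cells (SD, n = 2 each), where CPM is the count set against the scaled library size. Every trf4Δ value lay above every wild-type value. This is a 2.40-fold higher level (log2 1.26, SE 0.10; adjusted p 4.9e-05 in the quasi-likelihood test of edgeR). In RNA from whole cultures, more cells with a transcript and more of it per cell cannot be told apart.

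Of the 10 members, 9 were called higher in trf4Δ at an adjusted p under 0.05 and none was called lower, while 31.3% of the 6372 features tested were called higher and 28.9% lower. COS2 was the exception. A change of at least 2-fold was called for 6 members, against 15.5% of all features. The median log2 fold change of the members was 1.02, against 0.01 over all features. Both trf4Δ libraries lay above both wild-type libraries for all 10 members, which held for 41.7% of all features. Leaving out the second wild-type library reduced the members called to 6, with COS3, COS7 and COS9 lost, and leaving out any other single library left 8. An arm then has 1 library, which is assumed to vary like the rest.

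**Figure D1:**
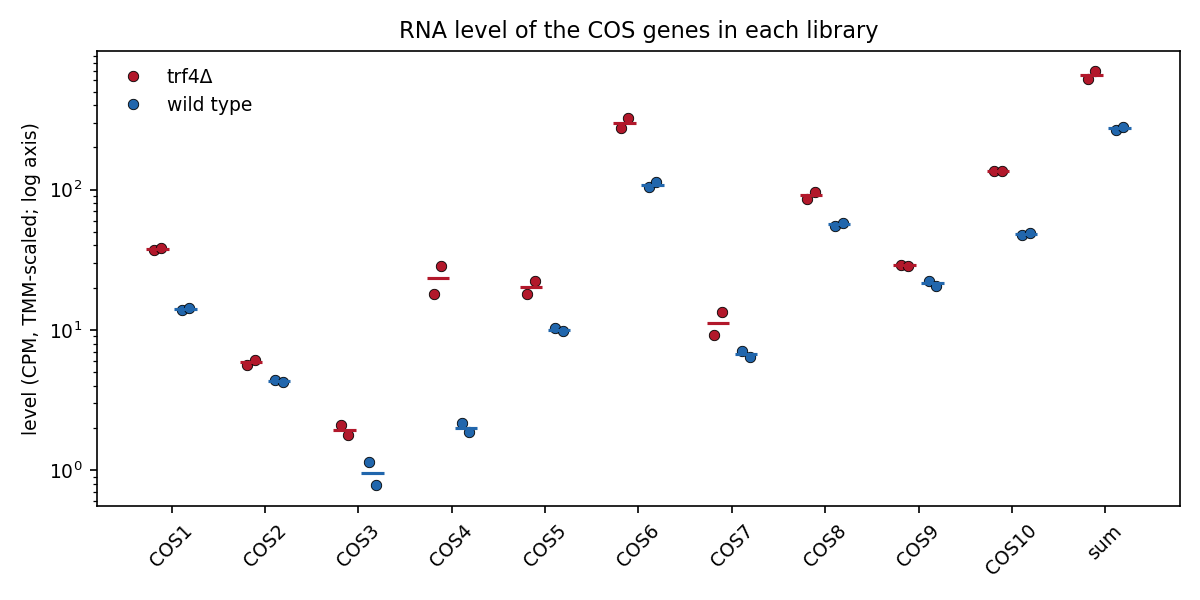
Level of each COS gene and of their sum in CPM (TMM-scaled, log axis), with trf4Δ libraries in red left of wild-type libraries in blue, each point a library and each bar the mean of 2. COS6, COS10 and COS8 have the highest levels in both strains, and no gene has overlapping groups.

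The members whose sequence is mostly unique carried most of the counts. Since the treatment of reads with several matches is not given, the shares of members are uncertain. COS6, COS8 and COS10 together held 80.7% and 79.9% of the family's counts in trf4Δ cells, compared with 77.1% and 79.1% in wild-type cells. COS6 had the highest level of all, at 275 and 323 CPM in trf4Δ, against 104 and 113 CPM in the wild type. Its log2 fold change was 1.46 (SE 0.11, adjusted p 3.88e-05). Per kb of gene length, COS6 was at 261 CPM in trf4Δ and 94.6 CPM in the wild type.

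COS10, the distant member that points toward its telomere, changed by nearly the same amount. It had 136 CPM in both trf4Δ libraries, against 47.8 and 49.2 CPM in the wild-type libraries, so that the replicates were almost equal in either strain. This was a 2.80-fold higher level (log2 1.49, SE 0.09, adjusted p 1.97e-05). All windows of COS10 are unique in R64, so against that reference its counts do not depend on how reads were divided among copies.

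COS8 and COS9 changed less. COS8 had 85.8 and 96.8 CPM in trf4Δ, against 55.0 and 58.2 CPM in the wild type, a log2 fold change of 0.69 (SE 0.10, adjusted p 0.000757). COS9, the other distant member and the longest at 1224 bp, had 29.0 and 28.7 CPM in trf4Δ, against 22.4 and 20.6 CPM in the wild type. Its log2 fold change of 0.43 (SE 0.11, adjusted p 0.0111) was the smallest of the members called, and the call was lost without the second wild-type library (0.38, adjusted p 0.0821). Summed, COS6, COS8, COS9 and COS10, the members with over 75% unique windows, rose by 1.24 on the log2 scale (SE 0.09, adjusted p 4.65e-05). This grouping was chosen after the data were seen.

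Among the members that share most of their sequence, COS4 differed most between the strains. It had 17.9 and 28.7 CPM in trf4Δ, against 2.16 and 1.87 CPM in the wild type, from 1080 and 1728 counts in trf4Δ and 110 and 96 counts in the wild type. COS4 was thus 11.6-fold higher (log2 3.53, SE 0.26, adjusted p 3.98e-05). It ranked 37 among all 6372 features by log2 fold change. The trf4Δ libraries were not alike here, since the second was 1.60 times the first, and the log2 fold change was 3.15 without the second and 3.83 without the first. COS4 was the lowest but one in the wild type by CPM per kb, at 1.77, while 5 members were higher than it in trf4Δ by the same measure, where it was at 20.5. This order of levels is uncertain for the same reason as the levels of the close copies. Differences between members in their fold changes were not tested, as the copies share libraries and reads.

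COS1, on the left arm of chromosome XIV, had 36.8 and 38.6 CPM in trf4Δ, against 14.0 and 14.4 CPM in the wild type. Its log2 fold change was 1.41 (SE 0.11, adjusted p 4.83e-05). COS5 had 18.1 and 22.4 CPM in trf4Δ, against 10.3 and 9.86 CPM in the wild type, a log2 fold change of 1.01 (SE 0.15, adjusted p 0.000876). COS7, whose reading frame is 95.6% identical to COS5, had 9.18 and 13.4 CPM in trf4Δ, against 7.03 and 6.39 CPM in the wild type. Its log2 fold change was 0.75 (SE 0.21, adjusted p 0.017), and the call was lost without the second trf4Δ library (0.45, adjusted p 0.0622), the first wild-type library (0.82, adjusted p 0.0544) or the second (0.69, adjusted p 0.0923). As for COS4, the second trf4Δ library had the higher value for COS5 and COS7, at 1.24 and 1.46 times the first.

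The identical pair, in which no window is unique, had the lowest levels in trf4Δ by these counts. The treatment of reads with several matches is not given, so its place in the order is uncertain. COS2 had 5.60 and 6.13 CPM in trf4Δ, against 4.38 and 4.23 CPM in the wild type, with a log2 fold change of 0.45 (SE 0.19, adjusted p 0.0783), which did not pass. COS3 had 2.11 and 1.80 CPM in trf4Δ, against 1.14 and 0.779 CPM in the wild type, a log2 fold change of 1.02 (SE 0.31, adjusted p 0.0233). The call of COS3 was lost without the first trf4Δ library (0.90, adjusted p 0.0733) or the second wild-type library (0.78, adjusted p 0.175). Summed, the pair rose by 0.57 on the log2 scale (SE 0.18, adjusted p 0.0249). The sum of COS1, COS2, COS3, COS4, COS5 and COS7, which have under 50% unique windows, rose by 1.39 (SE 0.12, adjusted p 7.86e-05), against 1.24 for the other 4 members. Both of these sums were also chosen after the data were seen.

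**Figure D2:**
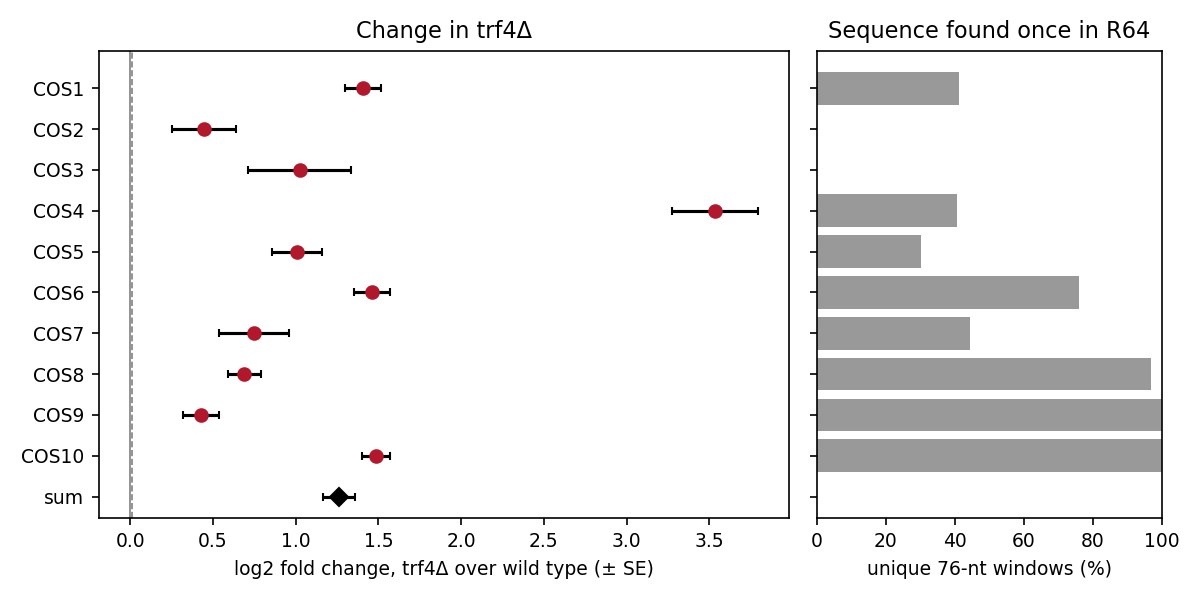
Left, log2 fold change of each COS gene and of the family sum (diamond) in trf4Δ over the wild type, with the SE as error bars and the median of all features as a dashed line at 0.01. Right, percentage of 76-base windows found once in R64. Members with no unique window (COS2, COS3) and with only unique windows (COS9, COS10) both include smaller and larger changes.

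In these libraries the change of a feature varied with its abundance, so each member was also set beside features of like abundance, in 10 groups of equal size ordered by mean level. COS3 was in the lowest group, with a median log2 fold change of 1.18, and COS2, COS4 and COS7 in the second, with a median of 0.72. COS2 (0.45), COS3 (1.02) and COS7 (0.75) were thus near or below the median of their group, and COS4 (3.53) was above it. COS5 and COS9 were in the third group, whose median was 0.34, and COS1 in the fourth, whose median was 0.13. COS8 was in the sixth group (-0.07), COS10 in the seventh (-0.16) and COS6 in the ninth (-0.26). Of the features in these 3 groups, 23.7%, 19.8% and 15.7% were called higher, in that order. The share was 53.0% in the group of COS3 and 59.5% in that of COS2, COS4 and COS7. It was 49.9% in the group of COS5 and COS9 and 38.0% in that of COS1. The 31.3% over all features is thus not the share at the level of each member. The part of abundance in the changes of the members was not tested.

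COS12 (chrVII:2790-3932, the left arm of chromosome VII) is a further member of the family by name and was listed at 0 in all 4 libraries. All its 76-base windows are unique in R64. Its neighbour YGL262W was also listed at 0 throughout, and PAU11, the next gene, had 9 and 15 counts in trf4Δ, against 2 and 2 counts in the wild type. Whether W303 carries COS12 was not tested. The pseudogene YIR043C, with 88.8% unique windows, had 479 and 475 counts in trf4Δ, against 73 and 64 counts in the wild type, and rose by 2.56 on the log2 scale (SE 0.22, adjusted p 7.31e-05).

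The genes beside the COS genes were examined next, since several members sit in copied blocks. COS1 and COS4 are each followed, toward the centromere, by a DDI gene for cyanamide hydratase (DDI2, DDI3) and by a pair of SNO and SNZ genes of vitamin B6 metabolism, at almost the same distances. DDI2 begins 1976 bp from COS1 and DDI3 1979 bp from COS4. COS2 and COS6 are followed by a PAU gene and a maltase gene (PAU24 and MAL32, PAU12 and MAL12), and COS5 and COS7 by a maltose permease, a sorbitol dehydrogenase and a hexose transporter gene (MPH3, SOR1 and HXT16, and MPH2, SOR2 and HXT15). Both permease genes lie 3031 bp away. The neighbours in such blocks are copies as well, and how their reads were divided is not given in the sources used here.

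Of 45 neighbours, up to 3 on each side of each member, 39 had enough counts to be tested. The test called 27 of them higher and 1 lower, where 31.3% and 28.9% of all features were called, and their median change was 1.23 on the log2 scale. Most neighbours had low levels, and 32 of the 39 were in the 3 lowest abundance groups. There 24 were called higher, beside 54.1% of all features of those groups, and the median changes were 1.49 for the neighbours and 0.69 for all. Of the other 7 neighbours, 3 were higher, beside 21.5% of all features at these levels. The part of abundance in the changes of the neighbours was not tested. Among the 17 immediate neighbours, 14 were tested, with 11 higher and none lower. The lower neighbour was URA1, a gene for dihydroorotate dehydrogenase and the farthest of those examined beside COS9, at -0.62. DDI3 had 117 and 164 counts in trf4Δ, against 39 and 31 counts in wild-type cells, with no overlap between the groups.

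On the centromere side, DDI2 (1.61), DDI3 (1.77), MPH3 (1.30), PAU12 (2.02), MPH2 (2.69), ARN2 (1.28), which encodes a siderophore transporter, and SRY1 (0.88) were called higher. PAU24 beside COS2 (0.36, adjusted p 0.516) and YML131W beside COS3 (0.45, adjusted p 0.0765) did not pass, and AIF1 beside COS10 had at most 1 count in any library. On the side of the chromosome end, YFL064C (1.45), YHL048C-A (2.90), the ferric reductase gene FRE2 (0.95) and YNR075C-A (1.53) were called higher. YML133C beside COS3 was at 0.47 (adjusted p 0.251), and the Y′ helicase genes YRF1-6 and YRF1-3 had too few counts to be tested. YNR075C-A lies 470 bp beyond COS10 on the opposite strand, with 498 and 495 counts in trf4Δ, against 156 and 135 counts in the wild type, and the strand setting of the counting is not given in the sources used here.

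**Figure D3:**
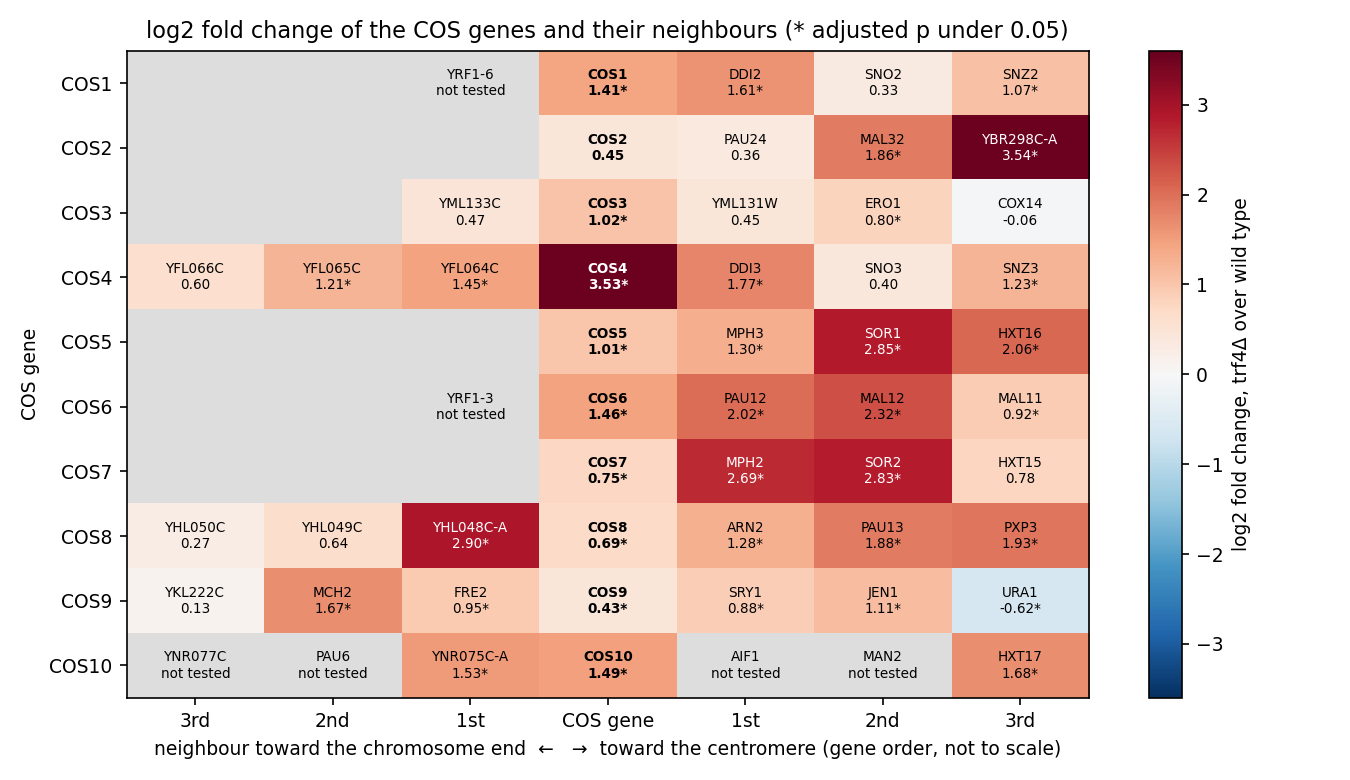
Log2 fold change in trf4Δ over the wild type for each COS gene (middle column) and its 3 nearest RefSeq genes on either side, in gene order and not to scale. Asterisks mark an adjusted p under 0.05, grey cells were not tested or lie beyond the last gene, and 27 of the 39 neighbours tested were called higher.

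The other gene lists cover relatives of the COS genes and the pathways they belong to. The related DUP genes encode smaller membrane proteins of the same superfamily, of which 10 could be tested. Among these, 7 were higher, 0 were lower, and the median change was 0.63 on the log2 scale. YCR007C rose by 1.41 (SE 0.11), PRM8 by 1.12 (SE 0.12) and UIP3, whose product interacts with the SUMO protease Ulp1, by 1.06 (SE 0.10). MST28 (0.17) and PRM9 (0.09) did not pass. These values stand beside 31.3% of all features called higher. Of the 6 DUP genes in the 3 lowest abundance groups 3 were higher, where 54.1% of all features were, and of the other 4 all were higher, where 21.5% of all features were.

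The ESCRT machinery, which recognises ubiquitin on cargo and forms the multivesicular bodies that Cos proteins enter, was mostly uncalled. The test called 6 of 19 genes higher and 1 lower, and the median was 0.04, against 0.01 over all features. With 31.3% of all features called higher and 28.9% lower, the share of higher genes was near that of all features. Of the 14 genes above the 3 lowest abundance groups, 6 were higher and 0 lower, beside 21.5% and 39.5% of all features there. Of the 5 genes in those 3 groups, 0 were higher and 1 lower, beside 54.1% and 4.03% of all features. The part of abundance was not tested. VPS27 (0.59), HSE1 (0.64), VPS36 (0.52) and STP22 (0.59) were among the higher genes. MVB12 was lower (-0.42), while VPS28 (-0.19, adjusted p 0.235) and SRN2 (-0.11, adjusted p 0.538) did not pass. The ATPase gene VPS4 (-0.10, adjusted p 0.324) and SNF7 (0.11, adjusted p 0.457) did not pass either. Ubiquitin ligases and their adaptors gave 7 higher genes of 17, 0 lower ones and a median of 0.21, beside 31.3% of all features called higher and 28.9% lower. All 17 lay above the 3 lowest abundance groups, where 21.5% of all features were higher and 39.5% lower. The adaptor genes ROG3 (2.11, adjusted p 1.08e-05), SSH4 (1.15) and ECM21 (0.99) had the smallest p-values, and the ligase gene RSP5 itself was at -0.10 (adjusted p 0.328).

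Genes of telomeric silencing and telomere binding, only some of which hold down genes near chromosome ends, were lower more often than higher. Lower calls numbered 9 of 14 and higher calls 4, and the median was -0.31. Of all features, 28.9% were called lower and 31.3% higher. For the 12 genes above the 3 lowest abundance groups, 8 were lower and 3 higher, beside 39.5% and 21.5% of all features at these levels. SIR2, the histone deacetylase of silent chromatin, had 2354 and 2019 counts in trf4Δ, against 3181 and 3015 counts in wild-type cells, a log2 fold change of -0.74 (SE 0.11, adjusted p 0.000879). The histone methyltransferase gene SET1 was at -0.61, and RIF2, a partner of Rap1 at telomeres, rose by 0.85. The remaining higher genes were YKU80 (0.43, adjusted p 0.00829), YKU70 (0.39, adjusted p 0.0158) and SIR3 (0.29, adjusted p 0.0225). Without any single library, trf4Δ or wild type, only 5 or 6 genes of the list were called lower and 2 to 4 higher. Scaled by library size alone, which moves the median of all features to 0.34, the list had 5 lower and 4 higher genes and a median of 0.01. It thus stayed 0.32 below all features under either scaling.

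COS genes are reported to respond to NAD+, so genes of its synthesis and of the Sum1-Hst1 repressor were listed. Higher calls numbered 4 of 14 and lower calls 1 (NMA1, -0.32), and the median was -0.02. The share of higher genes was slightly below the 31.3% of all features, of which 28.9% were called lower. All 14 genes lay in abundance groups 4 to 10, counted from the lowest. There 28.6% of the list were higher and 7.14% lower, beside 21.5% and 39.5% of all features. The part of abundance was not tested, so nothing is read from the list as a whole. BNA2, the first enzyme of NAD+ synthesis from tryptophan, rose by 2.40 (SE 0.13, adjusted p 1.38e-05), and PNC1, the nicotinamidase, by 1.62 (SE 0.10, adjusted p 2.33e-05). BNA1 was also higher (0.42). SUM1 (-0.15, adjusted p 0.186), HST1 (-0.10, adjusted p 0.505) and RFM1 (-0.05, adjusted p 0.686), the subunits of the repressor, did not pass.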

How the data were processed

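The authors deposited whole-number counts per feature for each of the 4 libraries, with no normalisation. Per the labels, paired-end ScriptSeq v2 libraries were sequenced on a HiSeq, and the processing notes name STAR 2.5.3 and sacCer3. The counting program, its strand setting and its treatment of reads with several matches are not given in the sources used here. The paper supplied with the series describes other samples, and no method or value was taken from it.

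The test was run in edgeR 4.0.16 under R 4.3.3. After filterByExpr, 6372 of 7445 features entered it, and TMM set the library sizes. All 4 libraries were fitted with genotype as the single term, the quasi-likelihood F-test was two-sided, and p-values were adjusted by Benjamini-Hochberg across every feature that entered. For the family sum, 1 summed row took the place of the 10 rows in the whole table. Each SE is the size of the log2 fold change over the square root of its F. The procedure was first tested on simulated data with 200 changed genes. Far more features were called in these libraries, so the simulation does not test the scaling in that setting. Alternatives included DESeq2 1.42.0, other scalings and filters, and leaving out each library.

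Members, lists and tests were chosen with earlier results of these data known. Named were TRF4, all members, COS12, immediate neighbours and up to 3 genes per list with the smallest adjusted p, and others with their values seen, among them YIR043C, YGL262W, PAU11, STP22, NMA1 and those given as not passing. Sequences came from RefSeq R64 (S288C) and were handled in Python 3.11.15 with Biopython 1.88. Identity was counted over the longer sequence in global alignments. A total of 3 counts corresponded to between 0.0518 and 0.0561 CPM before scaling, for counting error only. The 10 abundance groups hold equal numbers of the features tested, ordered by mean level, and setting the 3 lowest apart was chosen after the data were seen. Groups of 2 allow no outlier test.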

Additional observations from a re-analysis of the deposited data

How the results depend on the processing

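The family sum kept its direction and its call under the 13 alternatives with a test, with a log2 fold change between 1.11 (without COS6) and 1.58 (library size alone). Summed per kb of gene length it was 1.27, with no test. Sums over subsets of the members, added after the data were seen, lay between 0.57 (COS2 and COS3) and 1.39 and were called higher. The number of members called higher was 9 under size factors of the DESeq2 type, scaling from nuclear ORFs, either other filter, robust fitting and DESeq2, 10 under library size alone or at an adjusted p under 0.1, and 6 at an adjusted p under 0.01. No member was called lower under any of these. The median log2 fold change of the members, 1.02, was 1.34 under library size alone, where the median of all features was 0.34, and lay between 0.88 and 1.18 when single libraries were left out. None of 110 single-member values changed sign. COS2 passed under library size alone (0.77, adjusted p 0.0103), whereas COS3, COS7 and COS9 lost their calls at an adjusted p under 0.01 and when certain single libraries were left out. No paired analysis was possible because the labels give no replicate numbers that both groups share. Under library size alone, 9 of 10 related DUP genes, 10 of 19 ESCRT genes, 14 of 17 ligase and adaptor genes and 9 of 14 NAD+ and repressor genes were higher, so for these lists only the distance to all features is independent of the scaling. Precision was limited by the 2 libraries per group, and the SE was 0.31 for COS3, the member with the fewest counts, and 0.09 for COS10.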

Other observations

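TCGGCGGCT, the URS1 core found before 7 COS genes, occurred within 250 bp of the start of 28 other genes, of which 27 had enough counts for the test. It called 17 of them higher in trf4Δ and 2 lower, where 31.3% and 28.9% of all features were called, and their median change was 0.58 on the log2 scale. Without the second wild-type library 11 were called higher, and without any other single library between 13 and 15. Of the 27 genes, 14 were in the 3 lowest abundance groups, where 13 were called higher, beside 54.1% of all features of those groups. Of the other 13 genes, 4 were higher and 2 lower, beside 21.5% and 39.5% of all features at these levels, and their median change was 0.02. The 3 genes with the smallest adjusted p were YIG1, MER1 and SLZ1. YIG1 had 1703 and 1482 counts in trf4Δ, against 265 and 250 counts in the wild type (2.39, adjusted p 2.02e-05). MER1, a meiotic splicing factor, had 1087 and 1258 counts in trf4Δ, against 285 and 288 counts in the wild type (1.80, adjusted p 7.08e-05). SLZ1, a gene expressed in sporulation, had 945 and 865 counts in trf4Δ, against 167 and 119 counts in the wild type (2.43, adjusted p 7.74e-05). YOR338W (1.09, adjusted p 0.000143) and the mitochondrial peroxiredoxin gene PRX1 (1.42, adjusted p 0.000185) followed, while ZIP1 (-0.33, adjusted p 0.0821) and SPO22 (-0.07, adjusted p 0.606), which act in meiosis, did not pass. The motif and these genes were chosen after sequences and values had been seen, and the parts of the motif and of abundance in their change were not tested.

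YHL048C-A, 603 bp from COS8 on the side of the chromosome end and on the opposite strand, had 168 and 177 counts in trf4Δ, against 23 and 16 counts in the wild type. Its log2 fold change was 2.90 (SE 0.32, adjusted p 0.000226), while that of COS8 was 0.69.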
